A study of Mus musculus with 7 samples.

Results

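The comparison set the day 3 library of differentiating CCE cells against the day 2 library and asked which genes and programs stood higher or lower after the additional day. The members were chosen by level: each gene symbol was represented by its transcript with the highest mean over the 7 daily libraries, and it was kept where its value reached 7 on the log2 scale on day 2 or on day 3. Of 12071 symbols in the table, 10737 met that minimum and 1334 did not. The minimum was reached on both days by 9902 genes, on day 3 only by 313 and on day 2 only by 522. The lowest kept value on the higher day was 7.01, and the highest value left out was 6.99.

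CCE is a mouse embryonic stem cell line, grown here on gelatin without feeder cells. On day 0 the medium held leukemia inhibitory factor (LIF), the cytokine that keeps mouse stem cells undifferentiated, and the cells received DMSO. From day 1 onward LIF was withdrawn and 5 µM retinoic acid added, so the day 2 and day 3 groups carried the same labelled treatment and differed in its duration. Each day had 1 library, the medium was renewed on alternate days, and the labels name neither separate cultures nor which libraries followed a renewal, whose part in the results was not tested.

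Retinoic acid enters the nucleus, binds retinoic acid receptors at DNA and switches on patterning genes, among them the Hox clusters and the enzymes that degrade retinoic acid itself. Nodal is a secreted factor of the TGF-beta family that holds cells in the state of the early epiblast and induces its own inhibitors, the Lefty proteins. Parietal endoderm, smooth muscle and mesenchymal cells are known for secreting basement membrane or collagen and, in the case of the muscle and mesenchymal cells, for actin isoforms that tense the cell. Many actin and contractile genes carry a CArG box near their start, the element bound by serum response factor.

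Promoters of 3 actin and myosin genes are shown because these genes were all at least 2-fold higher on day 3 and their 250 bases upstream of the start held a CArG box, printed in capitals. Actc1 encodes cardiac alpha-actin, Acta1 skeletal alpha-actin and Myl9 a regulatory light chain of smooth muscle myosin. A promoter without an exact match, that of Acta2, the smooth muscle alpha-actin gene and the one with the largest well-counted difference, is printed beside them. The sequences are from RefSeq in GRCm38.p6, 5′ to 3′ on the gene's strand, at chr2:114052876-114053125 (minus) for Actc1, chr8:123894776-123895025 (minus) for Acta1, chr2:156775214-156775463 (plus) for Myl9 and chr19:34255374-34255623 (minus) for Acta2. The search took the strict form of the box, CC and GG around 6 bases that are each A or T. Forms with a different base inside, which are known in smooth muscle genes, were not searched, so the lack of a match in these letters of Acta2 does not show that it lacks such an element. The box begins at position -47 from the start site in Actc1, at -73 in Acta1 and at -161 in Myl9.
Actc1: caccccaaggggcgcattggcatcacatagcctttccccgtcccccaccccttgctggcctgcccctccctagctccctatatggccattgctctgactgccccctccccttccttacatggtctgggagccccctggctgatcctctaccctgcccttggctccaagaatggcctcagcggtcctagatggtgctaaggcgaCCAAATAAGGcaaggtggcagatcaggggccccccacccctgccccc
Acta1: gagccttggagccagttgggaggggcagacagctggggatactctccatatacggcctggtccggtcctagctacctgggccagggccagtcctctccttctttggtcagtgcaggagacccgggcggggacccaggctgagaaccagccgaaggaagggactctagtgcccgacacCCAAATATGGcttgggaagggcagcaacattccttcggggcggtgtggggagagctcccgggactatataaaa
Myl9: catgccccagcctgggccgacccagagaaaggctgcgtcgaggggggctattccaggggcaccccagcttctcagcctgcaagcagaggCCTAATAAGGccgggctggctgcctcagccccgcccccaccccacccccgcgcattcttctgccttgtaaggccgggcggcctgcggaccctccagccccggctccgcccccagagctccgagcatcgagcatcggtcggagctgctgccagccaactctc
Acta2: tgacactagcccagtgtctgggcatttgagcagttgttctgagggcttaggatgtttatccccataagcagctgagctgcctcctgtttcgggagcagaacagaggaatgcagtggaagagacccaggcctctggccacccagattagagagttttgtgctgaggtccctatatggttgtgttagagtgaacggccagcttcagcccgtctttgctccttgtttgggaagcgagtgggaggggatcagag

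Values are log2 normalized reads: whole reads of a transcript, scaled by a factor common to its library and not divided by transcript length. A value of 7 stands for 128 normalized reads, which was 72.6 reads on day 2 and 64.2 on day 3. The listed transcripts held 11198956 recovered reads on day 2 and 9911246 on day 3, against 7194325 (day 6) to 17923852 (day 4) over the course. With 1 library a side no difference has a replicate check and no test was possible. Each difference is therefore given with a 95% exact binomial (Clopper-Pearson) interval, which covers counting error only and neither culture nor library preparation. A gene is said to stand higher or lower where it differed at least 2-fold. The RNA came from whole cultures, in which fewer cells of a type and less RNA per cell cannot be told apart.

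On day 3, 435 of the 10737 genes (4.05%) stood at least 2-fold higher than on day 2 and 377 (3.51%) stood at least 2-fold lower. These shares over all genes are the background for the list counts below, some of which rest on few genes. At 4-fold the counts were 82 higher (0.764%) and 39 lower (0.363%), and at 8-fold 17 higher and 11 lower. Among the largest well-counted differences were those of the actin gene Acta2, the fibrillar collagen gene Col3a1 and the secreted matrix protein gene Ecm1 on the higher side and of Lefty1, Lefty2, Nodal and Hoxb1 on the lower side. Counting intervals excluded no difference for all 435 and all 377, and lay wholly beyond 2-fold for 262 and 168. The median half-width of the interval was 0.35 on the log2 scale among these genes. On day 2, 145 of the higher genes were below the minimum of 7, as were 189 of the lower genes on day 3, so these entered through their higher day and had to differ. Any list member that reached the minimum on 1 day only likewise had its direction set by the minimum. The median difference over all genes was −0.098, and a scaling that sets it to 0 gave 511 higher and 305 lower genes, or 62.6% higher in place of 53.6%.

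**Figure D1:**
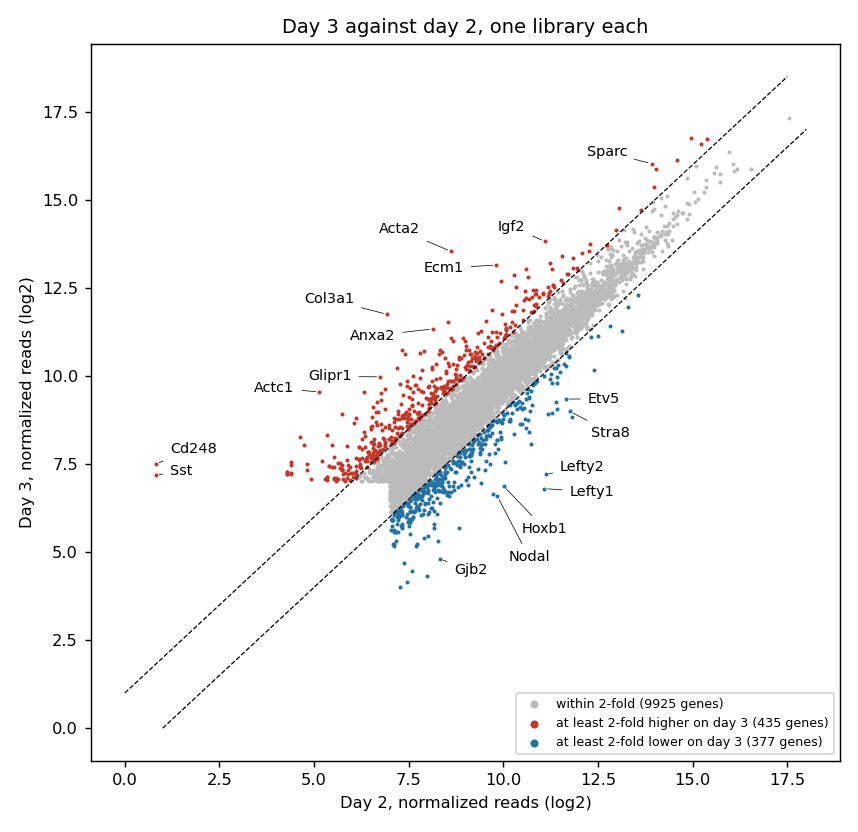
Log2 normalized reads on day 2 (horizontal) and day 3 (vertical) for the 10737 genes kept, 1 point a gene and 1 library a day. The dashed lines mark a 2-fold difference, red points are the 435 higher genes and blue points the 377 lower genes, and the straight edges at 7 come from the minimum on either day.

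The step was smaller than the steps before it and larger than the ones to day 4 and to day 5. Over the same genes the root mean square difference was 0.79, 0.83, 0.58, 0.36 and 0.28 for the 5 daily steps from day 0 to day 5. The genes had to reach the minimum on day 2 or 3, which bears on the counts for the other steps. At least 2-fold higher genes numbered 1220 from day 1 to day 2 and 97 from day 3 to day 4, and lower genes numbered 317 and 105. Among the genes kept, higher ones thus outnumbered lower ones by more on day 2 than on day 3. A gene that fell below the minimum by day 2 and stayed there on day 3 was not counted, whereas one that rose to it was.

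Nodal and both of its inhibitors were among the lower genes. Lefty1, a secreted inhibitor of Nodal (chr1:182865169-182868532, mm9), was at 8.48, 12.21, 11.07, 6.80, 4.78, 3.43 and 2.46 on days 0 to 6. It was highest on day 1 and on day 3 lay below its day 0 level, at 56 reads after 1223. The difference was −4.27 (95% interval −4.68 to −3.88), or 19.3-fold lower. Lefty2, the second inhibitor (chr1:182823249-182829233), was level at 10.58, 10.51 and 11.11 on days 0 to 2 and stood at 7.20, 4.95, 5.26 and 3.46 on days 3 to 6. Its difference of −3.91 (−4.27 to −3.57) was the first 2-fold departure in its course. Nodal itself, the ligand (chr10:60880719-60888085), was at 9.95, 10.17 and 9.84 on days 0 to 2, then at 6.58, 4.66, 2.26 and 1.46. It was level until day 2 like Lefty2, and day 3 stood lower by a difference of −3.26 (−3.72 to −2.83).

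Partners of the pathway stood lower as well, from courses that had already turned down. Gdf3, a related ligand, was at 11.20, 10.14, 7.90 and 5.39 on days 0 to 3, a difference of −2.52 at the step. Foxh1, the DNA-binding partner of the Smad proteins that carry the Nodal signal, went from 8.70 to 6.75, or −1.95 (−2.40 to −1.52). Follistatin (Fst), a secreted antagonist of the related activin ligands, was on the other side, at 7.79 on day 2 and 10.65 on day 3, or 2.86 higher (2.59 to 3.14). Of the 12 kept genes of the formative and primed epiblast, the state in which these factors act, 7 stood lower and 1 higher (Cldn6, a tight junction protein, at 1.52), with a median of −1.53. Of the 12, 6 reached the minimum on only 1 of the 2 days, day 2 or day 3.

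Pou5f1, which encodes the transcription factor Oct4, was at 14.40, 13.52, 10.68, 9.41, 8.46 and 7.66 on days 0 to 5. Its drop from day 2 to day 3, −1.27 (−1.45 to −1.09), was smaller than the one from day 1 to day 2. Nanog, its partner factor, was at 7.10 on day 2 and 5.16 on day 3 (−1.94), with 78 and 18 reads. Sox2 stood at 9.13 and 7.58 (−1.55), and Utf1, a chromatin protein of stem cells, at 9.05 and 7.14 (−1.91). Of the 15 kept genes of this list 7 were lower and 1 was higher, and the median was −0.79. The higher gene was Tdh, threonine dehydrogenase, an enzyme of mouse stem cell metabolism, which was at 12.49, 6.91, 9.73 and 10.74 on days 0 to 3.

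The naive pluripotency list, the genes of the state before implantation, did not move as a block. Its median was −0.13 over 11 kept genes, with 2 lower and 1 higher. Gbx2, a homeobox gene, was lower by −1.92 and Esrrb, an orphan nuclear receptor, by −1.70, while Klf4, a zinc finger factor, was 1.16 higher (0.94 to 1.38). Klf4 was at 11.93, 9.57, 8.86, 10.02, 10.54 and 10.34 on days 0 to 5, so day 2 was its lowest point before day 6. Among the LIF response genes the receptor gene Lifr was at 11.56 on day 2 and 13.41 on day 3 (1.85), and its co-receptor Il6st was 1.13 higher, while the remaining 9 of 11 kept genes were within 2-fold and the list's median was 0.044.

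Targets and feedback regulators of the FGF-ERK pathway, the growth factor signal that moves stem cells out of the naive state, leaned lower: 4 of 14 kept genes stood lower, none higher, with a median of −0.69. Etv5, an ETS transcription factor induced by that signal (chr16:22381385-22439643), was at 13.23, 12.48, 11.65, 9.34, 8.75, 7.94 and 4.92 on days 0 to 6. Its day 3 level was 4.94-fold below day 2, a difference of −2.30 (−2.48 to −2.13) from 1821 and 326 reads. Every later day lay below the one before it, and the third day brought the largest of the steps up to day 5. Its relative Etv4 was lower by −1.69, the receptor inhibitor Il17rd by −1.43 and the ERK phosphatase Dusp6 by −1.02. Spry2 (−0.59) and Spry1 (0.23), which encode feedback inhibitors, were within 2-fold.

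Hox genes, which set position along the body axis, were lower on day 3 without exception in sign. All 22 kept members had a difference below 0, from −3.12 for Hoxb1 to −0.30 for Hoxa5, with a median of −0.74, and the sign held when the scaling moved all genes by the median of −0.098. Of the 22, 4 (Hoxa7, Hoxa9, Hoxb1 and Hoxb7) reached the minimum on day 2 only, so the minimum set their sign. At 2-fold, 6 were lower and none stood higher. These 6 were Hoxb1, Hoxb8, Hoxb6, Hoxb5, Hoxb2 and Hoxb9, all in the HoxB cluster on chromosome 11. Hoxb1, the most 3′ gene of the cluster (chr11:96227071-96229567), was at 0.94, 9.84, 10.002, 6.88, 5.35, 3.96 and 1.46 on days 0 to 6. It was a pulse of the first days: the step of −3.12 (−3.54 to −2.74) took it from 582 to 59 reads and was followed by a further decline. Hoxb8 was at 3.53, 10.39, 11.18, 8.93, 9.01, 9.41 and 8.50, so its −2.25 (−2.45 to −2.05) was followed by a plateau. Hoxb6 and Hoxb5, with differences of −1.94 and −1.84, likewise stood near their day 3 level or above it on days 4 and 5. The HoxA and HoxC members kept were within 2-fold, the nearest to it being Hoxa9 at −0.88.

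**Figure D2:**
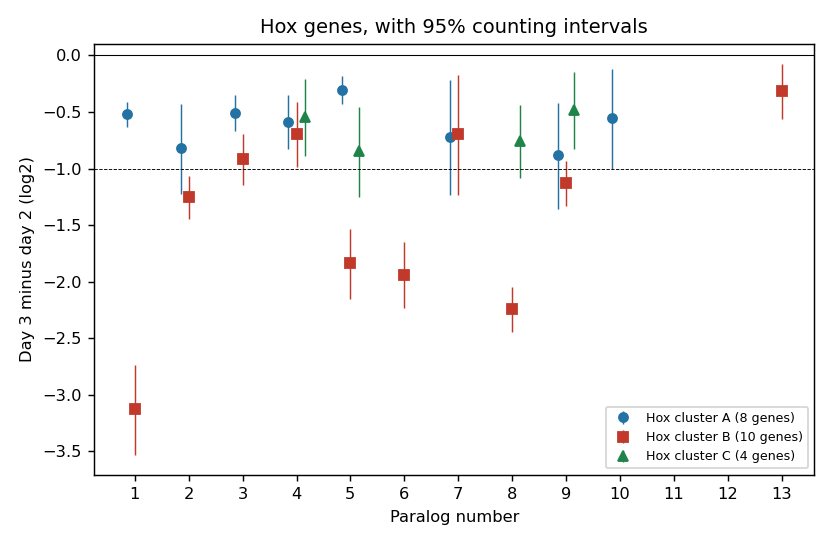
Day 3 minus day 2 difference (log2) of the 22 kept Hox genes by paralog number, with 95% counting intervals and 1 library a day. All 22 lie below 0, and the 6 below the dashed 2-fold line are all squares, the HoxB cluster. Of the 22, 4 were kept through day 2 only, which set their sign.

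Other retinoid genes parted into early pulses, plateaus and late starters. Stra8, a gene of meiotic entry induced by retinoic acid, was at 6.07, 12.70, 11.75, 8.99, 7.94, 6.80 and 6.54 on days 0 to 6, and its difference was −2.76 (−2.95 to −2.57). Crabp2, which delivers retinoic acid to its receptors, was highest on day 2: it was at 5.80, 8.59, 11.43, 9.06 and 8.15 on days 0 to 4, a difference of −2.37 (−2.56 to −2.18). By contrast Cyp26a1 and Cyp26b1, the enzymes that degrade retinoic acid, held their induced levels, at 13.73 and 13.93 on days 2 and 3 for Cyp26a1 and 13.62 and 13.23 for Cyp26b1. The receptor gene Rarb was 0.81 higher, within 2-fold. Synthesis genes stood higher: Aldh1a2, which makes retinoic acid from retinal, was level at 5.40, 5.95 and 6.10 on days 0 to 2 and was at 8.81, 9.41 and 8.87 on days 3 to 5. Its difference was 2.71 (2.22 to 3.24), and Rdh10, which makes retinal, was 1.63 higher (1.25 to 2.01). Over the retinoic acid response list, 2 of 26 kept genes stood higher (7.69%) and 5 lower (19.2%), and the median was −0.33. Of all genes, 4.05% stood higher and 3.51% lower.

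Several early neural genes were lower. Sox3, a neural progenitor factor, was at 9.66, 8.23 and 6.08 on days 1 to 3, a difference of −2.15 (−2.73 to −1.62). Pax6 was lower by −1.27 and Sox1 by −1.13, both transcription factors of the neural plate. Of 10 kept neural progenitor genes, 6 were lower and 1 was higher, with a median of −1.08, and 4 of the 10, Sox3 and Sox1 among them, reached the minimum on only 1 of days 2 and 3. In the neuron list 3 of 10 were lower (Ina, Stmn2 and Lhx1) and 2 higher (Nefl and Isl1), and the median was −0.20. Of these 10 genes, 4 reached the minimum on 1 of the days only, namely Stmn2, Lhx1, Nefl and Isl1. Msx1, a homeobox gene of the neural plate border and of BMP response, was at 5.54, 7.57 and 4.45 on days 1 to 3, or −3.12 from 108 and 11 reads.

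**Figure D3:**
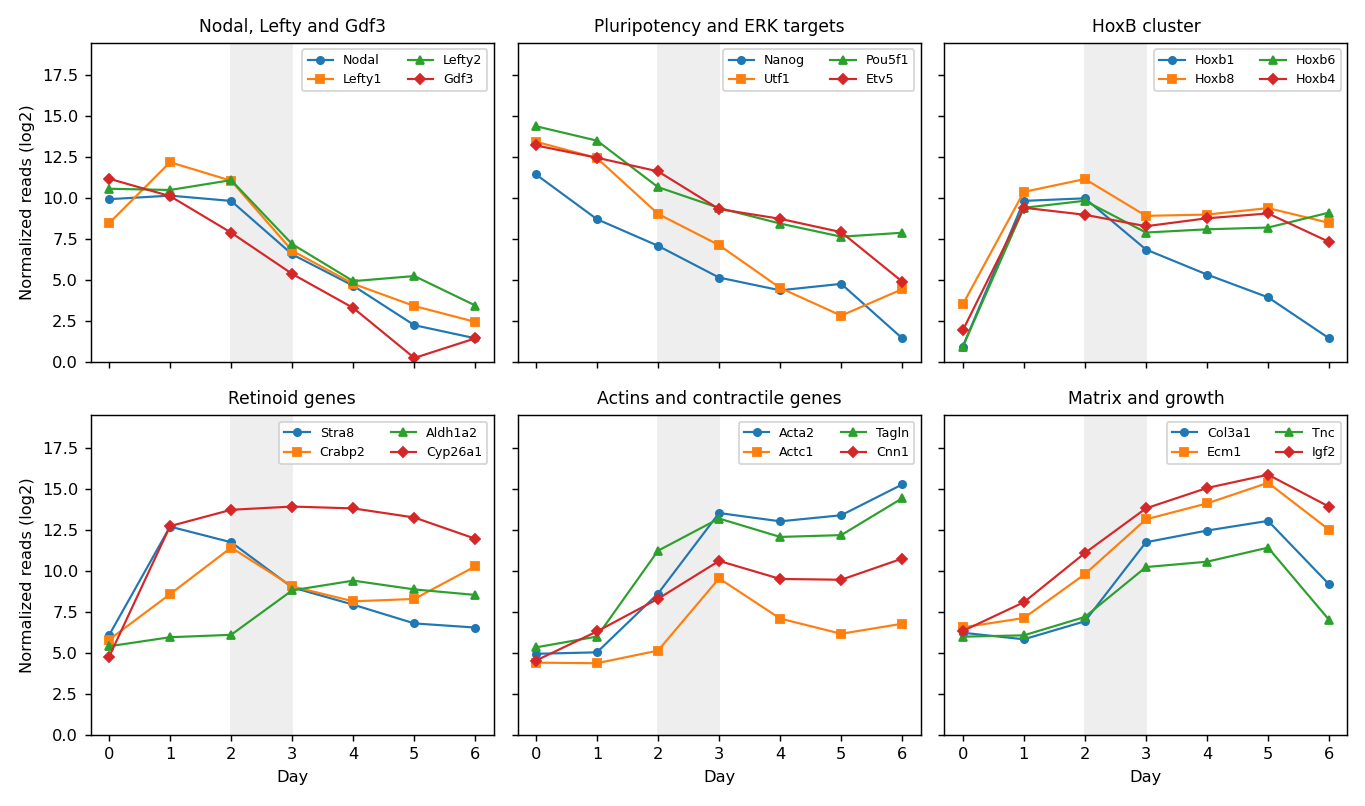
Log2 normalized reads of 24 genes on days 0 to 6, 1 library a day, with the step from day 2 to day 3 shaded. Nodal, Lefty1, Lefty2, Gdf3, Hoxb1 and Stra8 drop across the shaded band, Acta2, Actc1, Col3a1 and Aldh1a2 climb across it, and Cyp26a1 is level.

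Smooth muscle alpha-actin had the difference farthest from 0 by its counting interval. Acta2 (chr19:34315580-34329826) was at 4.94, 5.03, 8.62, 13.53, 13.03, 13.40 and 15.28 on days 0 to 6. It first departed on day 2, and the third day added a difference of 4.92 (4.72 to 5.12), or 30.2-fold, from 223 to 5955 reads. The level then held on days 4 and 5. Actc1 was at 4.40, 4.37 and 5.14 on days 0 to 2, at 9.55 on day 3, and at 7.09, 6.16 and 6.78 on days 4 to 6. Its 4.41 (3.76 to 5.13) was a peak of the third day rather than a plateau. Acta1 was at 7.83 on day 2 and 9.58 on day 3 (1.76), and at 8.17 and 8.16 on days 4 and 5.

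Part of the list of genes for actin-binding and contractile proteins stood higher as well. Tagln, an actin-bundling protein of smooth muscle, was at 5.33, 5.99, 11.23, 13.20, 12.08, 12.19 and 14.44 on days 0 to 6, and so took its largest step a day before Acta2. Its day 3 difference was 1.96 (1.88 to 2.05). Calponin (Cnn1) was 2.31 higher, smooth muscle myosin heavy chain (Myh11) 2.30 higher, leiomodin (Lmod1) 2.10 higher and Myl9 1.66 higher. Filip1l was 2.74 higher (2.35 to 3.16). Of the 31 kept genes of the smooth muscle and serum response factor list, 12 stood higher and none lower, with a median of 0.89, and 30 lay above 0. The exception in sign was desmin (Des) at −0.72. Cytoplasmic actin (Actb, 0.31) and the serum response factor gene itself (Srf, 0.03) were within 2-fold. At 52 reads, Myh11 was below the minimum on day 2, and 4 of the 31 genes reached the minimum on 1 of the 2 days only.

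Col3a1, a fibrillar collagen (chr1:45368382-45406550), was at 6.23, 5.83, 6.93, 11.75, 12.46, 13.05 and 9.18 on days 0 to 6. The step of 4.83 (4.48 to 5.19), from 69 to 1730 reads, was larger than the whole distance between day 0 and day 2. Ecm1 was at 6.56, 7.12, 9.81, 13.15, 14.12 and 15.38 on days 0 to 5, so its 3.34 (3.21 to 3.48) was part of a climb over 4 days. Tenascin C (Tnc), an adhesion-modulating glycoprotein of the matrix, was at 7.19 on day 2 and 10.24 on day 3 (3.04), and Col1a1, the main fibrillar collagen chain of connective tissue, was 2.44 higher. In the fibroblast and matrix list 13 of 28 kept genes stood higher, none lower, and the median was 0.97. Of the 28, 3 (Col3a1, Postn and Loxl1) reached the minimum on day 3 only. Collagen genes outside the list went both ways: Col2a1 and Col18a1 stood lower, and Col4a1, Col4a2, Col12a1 and Col27a1 stood higher. Col1a2 (0.19), which encodes the partner chain of Col1a1, and fibronectin (Fn1, 0.42) were within 2-fold.

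Basement membrane chains of parietal endoderm stood higher from levels already above day 0. The collagen IV genes Col4a1 and Col4a2 were 1.82 and 1.83 higher, with 17894 and 55961 reads for Col4a1 on days 2 and 3. The laminin 111 chains Lama1, Lamb1-1 and Lamc1 were 1.36, 1.53 and 1.36 higher. Nidogen (Nid1), which links laminin to collagen IV, was at 12.71, 11.29, 11.27 and 13.03 on days 0 to 3. Its day 3 difference of 1.76 (1.67 to 1.85) returned it to near the day 0 level. Sparc, a collagen-binding glycoprotein, went from 13.91 to 16.03 (2.12). Of 30 kept extraembryonic endoderm genes 17 stood higher and none lower, and the median was 1.12. Among its transcription factors Gata4 was 1.17 higher, whereas Gata6 (0.85), Sox17 (0.57) and Sox7 (0.28) were within 2-fold.

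Several genes known from visceral endoderm, the other extraembryonic endoderm type, were within 2-fold. Apob, the lipoprotein of that layer, was lower by −0.72 (−1.01 to −0.44) and Apoe by −0.66, and these were the only members of the 30 below 0. Transthyretin (Ttr) was at 0.80, Hnf4a at 0.65 and Foxa2 at 0.57. The endocytic receptor genes Cubn, Lrp2 and Amn and their adaptor Dab2 were at 0.87, 0.39, 0.15 and 0.84. Outside the list, Rbp4 and Ihh, also known from visceral endoderm, stood higher, Rbp4 by 3.24 (2.80 to 3.72). The endothelial and blood list held 6 kept genes of 20 listed, of which 2 stood higher (Flt1 and Kdr), and its summed level was 1868 normalized reads on day 2 and 3180 on day 3. The trophoblast list held 3 kept genes of 15, of which Gata2 stood higher, with sums of 1741 and 2770. The neural crest list held 6 kept genes of 13, of which 2 stood higher and 1 lower, with sums of 1438 and 2001. The part of such cells in the results was not tested.

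Anxa2, an annexin gene for a calcium-dependent membrane-binding protein (chr9:69301489-69339592), was at 8.58, 7.16, 8.14, 11.34, 11.83, 12.39 and 13.63 on days 0 to 6. Its difference of 3.20 (2.96 to 3.44), or 9.17-fold, followed 2 days below the day 0 level. Anxa1 was 2.06, S100a6 1.94 and S100a11 1.64 higher, members of the annexin family and of the calcium-binding S100 family that pairs with it. Of 11 kept annexin and S100 genes 6 stood higher and 1 lower, with a median of 1.01. The lower one was Anxa11, at −1.58 (−1.78 to −1.39). Anxa1 and S100a6 reached the minimum on day 3 only, which set their direction. Glipr1, a secreted or membrane-bound protein of the CAP family (chr10:111422503-111434320), was at 5.40, 5.83, 6.75, 9.97, 10.69, 10.59 and 10.56 on days 0 to 6. It was 9.36-fold higher on day 3, a difference of 3.23 (2.84 to 3.63) from 61 to 505 reads, and then level. In the list of integrins and adhesion genes 2 of 18 stood higher, none lower and 16 were within 2-fold, with a median of 0.39. The higher share was 11.1%, beside 4.05% of all genes. Of the 18, 3 reached the minimum on 1 day only: Itga2 and Itga8 on day 2, and Cd44, which stood higher, on day 3. The integrin gene Itgb4, outside the list, stood lower.

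Among mesenchymal regulators Snai2 was 1.59 and Twist1 1.27 higher, and the mesenchymal cadherin Cdh11 was 2.27 higher. The epithelial cadherin Cdh1 (−0.13) and the epithelial adhesion gene Epcam (−0.70) were within 2-fold, and the epithelial keratins Krt19 (2.42), Krt8 (1.44) and Krt18 (1.08) stood higher. The epithelial-mesenchymal transition list mixes both sides, with epithelial members such as Cdh1, Epcam, Ocln and Cldn6, so its median describes neither side alone. It held 17 kept genes, of which 5 were higher, Cldn6 among them, and none lower, with a median of 0.66. Of the 17, 3 (Snai2, Ocln and Esrp1) reached the minimum on day 3 only, which set their direction. The list of simple epithelial keratins and junctions had 4 higher of 10 with a median of 0.57. A list of the YAP and TEAD factors, which respond to cell spreading and tension, and of their targets had 6 higher and 1 lower of 21. Its median was 0.45. The growth factor gene Tgfb2 (2.16) and the matrix-associated Ctgf (1.52) were among those higher. The factor genes Yap1 (−0.29), Wwtr1 (0.10), Tead1 (0.11), Tead2 (−0.62) and Tead4 (0.49) were within 2-fold. A list of guidance genes of the semaphorin, ephrin, Slit and netrin families had 9 higher and 1 lower of 27, with a median of 0.45, led by the netrin receptor Unc5c (2.42) and the ligands Sema3c (2.34) and Slit3 (2.13). The list does not hold every member of these families. Outside it, Sema4a, Sema4d, Sema4f, Sema5b, Sema6c and Slit1 stood lower, and Epha3 and Ephb1 stood higher.

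Of 16 kept secreted proteases and inhibitors 9 stood higher and 1 lower, with a median of 1.23. The metalloproteinase Adamts1 was 2.41, the urokinase receptor Plaur 2.06 and the metalloproteinase inhibitor Timp3 2.02 higher, and the gelatinase Mmp9 was lower by −1.32. In the lysosome list 7 of 21 stood higher and 14 were within 2-fold. All 21 lay above 0, and their median was 0.68. Among them Ctsh reached the minimum on day 3 only. Cathepsin L (Ctsl), a lysosomal and secreted protease, went from 13.06 to 14.77 (1.71) and Cd63, a lysosome and exosome membrane protein, from 10.22 to 11.86 (1.63).

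Growth control genes parted by gene rather than by list. The fetal growth factor gene Igf2 was at 6.33, 8.09, 11.09, 13.82, 15.06 and 15.87 on days 0 to 5, and its day 3 difference was 2.73 (2.64 to 2.81). H19, the noncoding RNA next to it and expressed from the opposite parental copy, was at 10.27 on day 2 and 12.88 on day 3 (2.61). Plagl1, a zinc finger factor encoded by another imprinted gene, was 2.15 higher. The remaining 13 of the 16 kept imprinted growth genes were within 2-fold, and the list's median was 0.075. Cdkn1a, the p21 inhibitor of cyclin-dependent kinases, was level at 8.24, 8.70 and 8.93 on days 0 to 2 and was at 11.08, 11.72 and 11.94 on days 3 to 5, a difference of 2.15 (1.96 to 2.35). It belongs to the p53 targets, of which 6 of 18 stood higher and none lower with a median of 0.52, among them Btg2, an antiproliferative factor (1.64), and Mdm2, the p53 ubiquitin ligase (1.11).

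Housekeeping and proliferation lists had no member past 2-fold. These were DNA replication (29 kept, median −0.34), mitosis (26, −0.25), cytosolic ribosomal proteins (32, −0.18) and the respiratory chain (25, −0.12), beside a median of −0.098 over all genes. The study's title names Zfp217 and the m6A mark on RNA. A list of Zfp217, the m6A machinery and corepressor genes such as Rcor1, Kdm1a and Rest was within 2-fold in all 19 kept members. Its median was −0.17, with Zfp217 at −0.63. Sterol and fatty acid synthesis had 3 lower and none higher of 26, with a median of −0.36. In glycolysis only Ldhb, a lactate dehydrogenase subunit, was past 2-fold of 21 kept genes (−1.87), and its partner subunit Ldha stood at 0.87.

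**Figure D4:**
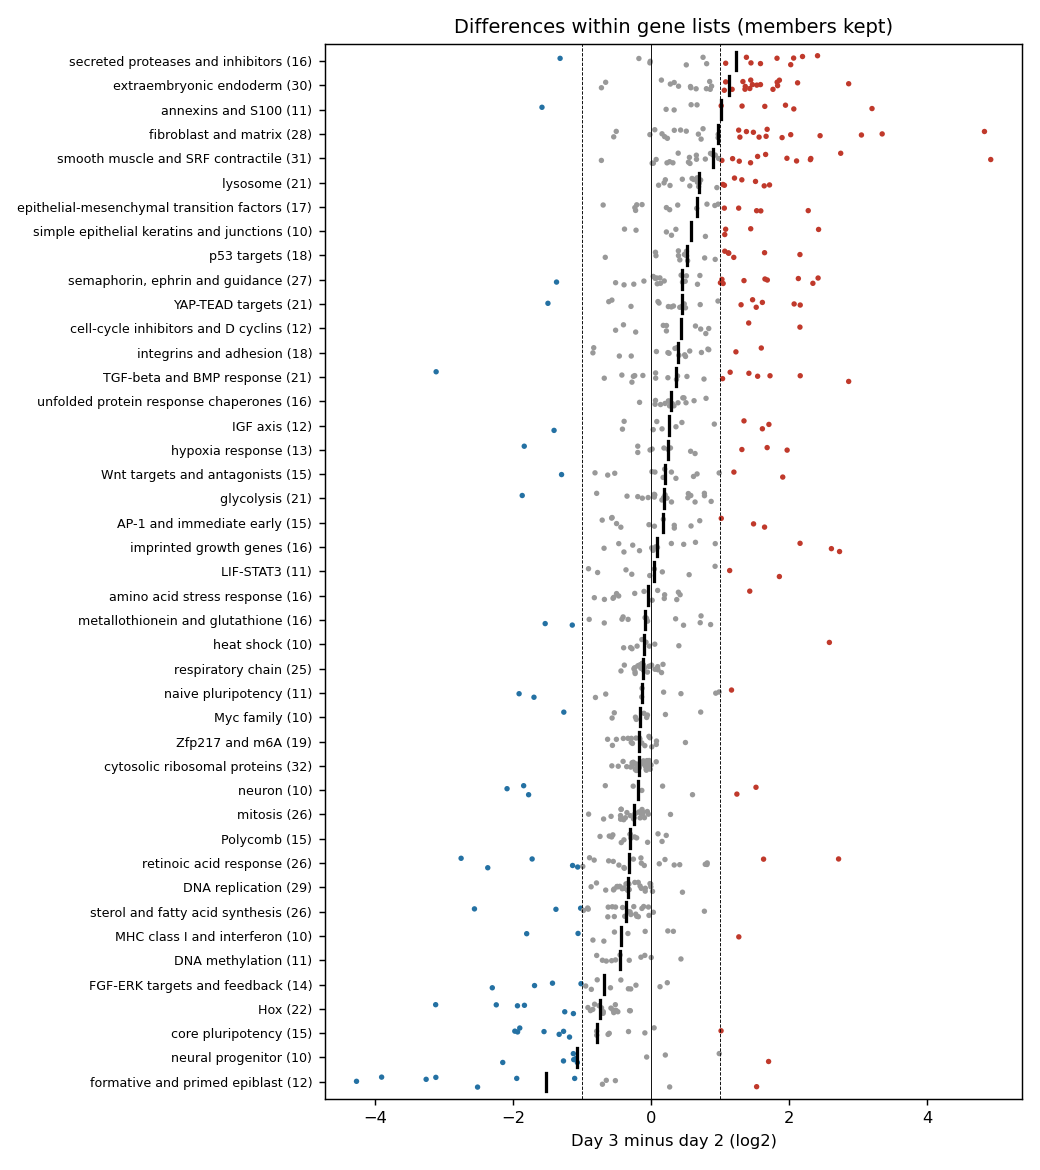
Day 3 minus day 2 difference (log2) of each kept gene of the lists with at least 10 kept genes (their number in brackets), 1 point a gene. Black bars are list medians and dashed lines mark 2-fold, from −1.53 in the formative and primed epiblast at the bottom to 1.23 in secreted proteases and inhibitors at the top.

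The daily courses placed most of the differing genes in longer movements. Of the 435 higher genes, 299 had already stood at least 2-fold above their lower value of days 0 and 1 on day 2. Another 105 were within 2-fold of each other on days 0, 1 and 2 and stood apart for the first time on day 3. Sst, which encodes the hormone somatostatin, led these 105: it was listed at 1 read on each of days 0, 1 and 2 and at 73 on day 3, a difference of 6.37 whose interval ran from 3.84 to 11.69, and it was at 8.95 and 9.21 on days 4 and 5. Tbx18, a T-box factor of mesenchymal lineages, was at 4.64, 4.48, 4.72 and 8.03 on days 0 to 3 and at 9.26 on day 4. The median of the 105 was 7.74 on day 2 and 9.14 on day 3, and on days 4 and 5, which did not enter the choice, it was 9.36 and 9.48.

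A group of 24 genes had been at least 2-fold below day 0 on day 2 and stood higher again on day 3. Their median was 9.60, 7.996, 7.78, 9.25, 9.73 and 9.84 on days 0 to 5, and 16 of the 24 were within 2-fold of day 0 on day 5. Epas1, a hypoxia-inducible transcription factor, was at 11.15, 10.19, 8.67 and 10.98 on days 0 to 3. Pcolce, an enhancer of collagen processing, was at 11.59, 9.61, 7.50 and 9.40. Cd248, a surface protein of stromal cells, had 1 read on day 2 and 91 on day 3, a difference of 6.69 with an interval of 4.17 to 12.005, and it reached 9.98 on day 5.

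Among the 377 lower genes the most frequent course was a pulse. On day 2, 171 of them were at least 2-fold above day 0, and their median was 6.15, 7.75, 8.83, 7.28, 7.13 and 7.28 on days 0 to 5. On day 5, 84 of the 171 were within 2-fold of day 0. Gjb2, a gap junction protein, was a pulse of a single day, at 0.94, 1.78, 8.32, 4.80 and 3.84 on days 0 to 4, with 181 reads on day 2 and 14 on day 3. Ap3b2, a subunit of a neuronal vesicle coat, was at 6.53, 9.89, 11.81, 8.83 and 7.49. Gfra1, a co-receptor for glial-derived neurotrophic factor, was at 5.80, 9.33, 10.74, 8.06 and 8.10, and so stopped above its day 0 level.

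A further 120 lower genes were level on days 0 to 2 and departed on day 3, with Lefty2 and Nodal among them, and 80 had begun to decline before. The 120 had a median of 8.38, 7.02, 7.04 and 7.08 on days 2 to 5, so they were level again after the step. The 80 went on down, from 8.26 on day 2 to 6.72, 6.48 and 6.18. Gdf3, the Nodal-related ligand, was among these 80 and reached 3.31 on day 4. Of all these, 6 genes, Lefty1 among them, met both the pulse and the earlier-decline rule, and 12 lower and 9 higher genes met none.

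For other genes the step was where an earlier movement stopped. At least 2-fold higher on day 2 than on day 1, 575 genes then differed by less than 0.5 on the log2 scale between days 2 and 3, and their median was 7.67, 9.21, 9.26 and 9.44 on days 1 to 4. Igfbp5, an insulin-like growth factor binding protein, was at 4.95, 11.83 and 12.27 on days 1 to 3. Peg3, an imprinted zinc finger gene, was at 10.11, 15.72 and 15.75. In the other direction 163 genes had been lower on day 2 and then were level, with medians of 10.29, 8.96 and 8.73 on days 1 to 3. Laptm5, a lysosomal membrane protein, was at 10.42, 7.61 and 7.67, and Cth, an enzyme of cysteine synthesis, at 10.02, 7.66 and 7.80.

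**Figure D5:**
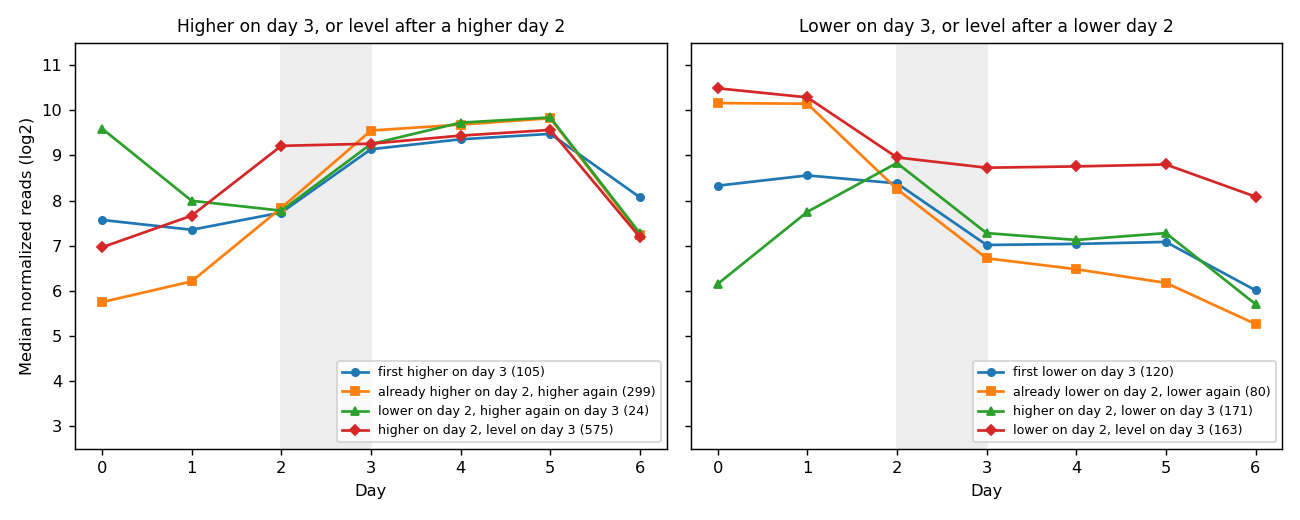
Median log2 normalized reads on days 0 to 6 of the 8 course groups around the step from day 2 to day 3 (shaded), with the number of genes in brackets and 1 library a day. Days 4 to 6 did not enter the choice of groups. The 24 genes lower on day 2 return near 9.60, their day 0 median, and all groups are lower on day 6, the shallowest library.

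The differences were compared with day 4 minus day 1, a contrast that shares no library with day 3 minus day 2. Over all 10737 genes, 17.2% stood 2-fold or more above their day 1 level on day 4 and 11.3% as far below it, and the median was −0.016. Of the 435 higher genes 411 (94.5%) were at least 2-fold higher on day 4 than on day 1 and none was lower, with a median of 2.89. Of the 377 lower genes 246 (65.3%) were lower, 21 were higher, and the median was −1.43. Day 4 minus day 1 also holds the change from day 1 to day 2, so earlier movement enters these counts. The rules that formed the course groups used the day 1 library as well, so the group counts that follow are not independent of that choice. Of the 299 genes already higher on day 2, 295 passed on the higher side. Of the 105 level on days 0 to 2, 91 did, and of the 120 level before a lower day 3, 91 were lower.

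The table's own annotation terms gave the location of the products. Of 125 kept genes of the proteinaceous extracellular matrix 42 stood higher (33.6%) and 7 lower (5.6%), and of 408 in the extracellular region 24.5% stood higher and 7.6% lower, beside 4.05% and 3.51% of all genes. Cell adhesion had 15.7% higher and 4.31% lower of 255. The wider lysosome term had 13 higher (9.56%) and 2 lower of 136, with a median of 0.20, and actin binding 18 higher (8.82%) and 7 lower of 204, with a median of 0.041. Nuclear products had 2.28% higher and 2.8% lower of 3071, and for sequence-specific DNA binding the lower share was the larger one, at 10.6% against 5.28% of 246. The transcript lengths of the sets were close, with medians of 3247 nt for the higher, 3076 nt for the lower and 3007 nt for all genes. Across genes the difference had a Spearman rho of −0.011 with length and of 0.078 with mean level. Genes are not independent replicates. Of 158 kept noncoding transcripts 5 stood higher and 6 lower, among the latter Rpph1 and Rmrp, the RNA parts of ribonucleases P and MRP, at −2.48 and −2.01.

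Some differing genes lay side by side. Along the mm9 chromosomes 59 runs of neighbouring kept genes stood on the same side, 33 higher and 26 lower, with 133 genes in all. Lefty2 and Lefty1 lay in 1 lower run, with Gdf3 and Nanog, Dppa4 and Dppa2, the metallothioneins Mt2 and Mt1, and 3 pairs of HoxB genes as others. H19 and Igf2, Col4a1 and Col4a2, and Krt8 and Krt18 were in higher runs. The longest run was the Ugt1a locus with 8 genes (chr1:89951985-90116577), glucuronidation enzymes whose transcripts overlap and can share reads, so their separate values are uncertain. The same holds for the near-identical pair H2-K1 (−1.81) and H2-D1 (−1.06).

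Promoter letters were counted in the 250 bases upstream of the start, on both strands, for the 8587 genes matched by gene ID to the RefSeq sequences in GRCm38.p6, which included 335 of the higher and 269 of the lower genes. A CArG box, as in the promoters of Actc1, Acta1 and Myl9 printed above, was present in 8 higher (2.39%), 4 lower (1.49%) and 117 of all promoters (1.36%). The other 5 higher genes with a match were Cited1, Fhl2, Filip1l, Igf2 and Pdgfc. The AP-1 letters TGANTCA were in 9.25% of the higher, 7.06% of the lower and 4.91% of all promoters. The TEAD core GGAATG was in 17.6%, 12.3% and 12.9%, and the GATA core AGATAA in 5.67%, 7.43% and 6.44%. The octamer ATGCAAAT was in 3.58%, 5.2% and 1.54%, and the E2F letters TTTCGCGC in 0.299%, 0% and 0.675%. None of these letter strings contains another, and a match is a description of the sequence only.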

How the data were processed

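RNA depleted of ribosomal RNA was sequenced in 1 stranded library per day, per the labels' protocols. Alignment was to mm9 with BWA 0.7.3, per the submitters' processing notes. Read counting, strandedness of the counts, gene models and scaling were not given in the sources used here. For each RefSeq transcript the authors deposited a log2 value per day. Every value up to 1000 reads was a whole multiple, within 0.05 reads, of the library's lowest value, which was taken as 1 read (it may stand for 0 reads where 1 was added first). Genes without a row were not analysed here. Table positions are mm9, counted from 1.

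Differences, exact binomial intervals (95%), TMM factors (computed directly) and other scalings were computed with Python 3.11.15, numpy 2.4.6, pandas 2.3.3, scipy 1.17.1 and statsmodels 0.14.6. Intervals and calls were tested on simulated data. The members, the 50 gene lists and the rules were chosen with earlier results of these data known. Named genes were the 15 each way with the interval bound farthest from 0, 5 markers, up to 6 per course group and up to 4 per list. Predicted, clone, Mir and Sno names were left out of the 15. Genes named beyond these were chosen after their values were seen. No sample was left out. Some genes are not reported here.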

Additional observations from a re-analysis of the deposited data

How the results depend on the processing

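The alternatives other than the 1.5-fold rule gave 2700 values for the 231 named genes. All kept their direction, and 2632 stayed within the counting interval. Several alternatives, such as other minimums or leaving out overlapping genes, only change which genes are kept. In those the direction of a gene could not change. The named genes were also mostly chosen by the size of their difference, so kept directions say little about smaller differences. Of 600 list medians none reversed. The genes at least 4-fold lower numbered 25 where the mean of days 2 and 3 had to reach 7 and 69 with no minimum, in place of 39. Genes first lower on day 3 numbered 76 at a minimum of 8 and 271 at 1.5-fold, in place of 120. The 24 genes lower on day 2 and higher again on day 3 became 42 with no minimum and 86 at 1.5-fold. At 1.5-fold, 1265 genes in place of 575 were higher on day 2 and then level, and 500 in place of 171 were higher on day 2 and lower on day 3. The cause of these shifts was not tested. TMM factors gave 512 higher and 300 lower genes (63.1% higher), quantile normalization 482 and 307 (61.1%), and no minimum 518 and 520 (49.9%). Median-centring and TMM add nearly the same amount to every gene, so they could only add higher calls and remove lower ones, and 305 and 300 of the 377 remained. Leaving out overlapping genes, chosen after seeing the data, gave 397 and 349. No paired analysis was possible because each day has 1 library, and no library could be left out for the same reason. A difference between days 2 and 3 includes any difference between cultures and library preparations, which these files do not measure.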
